A study of Homo sapiens with 2 samples.

Results

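The proteasome is the barrel-shaped protease that degrades ubiquitin-tagged proteins. Transcript signals of its genes outside the immunoproteasome were compared between KG1 cells treated with an siRNA against T-bet and KG1 cells treated with a control siRNA. Genes were taken by symbol, as PSMA to PSMG followed by a number, without the interferon-inducible subunits PSMB8, PSMB9 and PSMB10 and the activator subunits PSME1 and PSME2. This gave 38 of the 19775 genes on the array, read by 77 probe sets. They are 7 PSMA genes, 7 PSMB genes, 5 PSMC genes, 12 PSMD genes and 7 genes of the PSME, PSMF and PSMG families. Both probe sets of PSMA6 are assigned to PRORP as well and were left out, with 40120 and 40370 arbitrary units on the siRNA-Tbet and siRNAc arrays at the brighter one. No probe set carried the symbol PSMC5, PSMD7 or PSMD13, so these subunits are not covered.

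KG1 is an established human acute myeloid leukaemia line. Cells were electroporated with 1.98 µg of siRNA-Tbet or of siRNAc, left for 5 h, and then given the cytokine IL-18 at 10 ng/ml for 12 h, so both groups were transfected and stimulated. The data are 1 array for each group. No difference below therefore has a replicate check, no test was possible, and the number of arrays limits the precision of every value. A lower signal may come from fewer cells with a transcript or from less of it in each cell, and these cannot be told apart.

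The catalytic core particle is a stack of rings of α subunits, encoded by PSMA genes, and of β subunits, encoded by PSMB genes. The regulatory particle on its end consists of AAA-ATPases, encoded by PSMC genes, which unfold the substrate, and of other subunits, most of them encoded by PSMD genes, which bind and remove ubiquitin. In cells exposed to interferon-γ, PSMB8, PSMB9 and PSMB10 replace the catalytic subunits PSMB5, PSMB6 and PSMB7 in newly made particles. When proteasomes are inhibited, the transcription factor NRF1, encoded by NFE2L1, raises the transcription of most subunit genes together.

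The siRNA target was lower in the array labelled with its siRNA, with TBX21 at 1839 units against 3581, or 51.3% of control. Of 7 read markers of KG1 and blood progenitors, 5 were above 1000 units on both arrays, among them CD34 (17130 and 15839) and PTPRC (21790 and 22778), while SPN and KIT were below the array medians. Their signals summed to 95913 units in the siRNA-Tbet sample against 87062 in the control. Of 13 read markers listed for other cell types, 5 passed the array median on either array, and PECAM1 alone exceeded 1000 on both. The signals of all 13 summed to 4184 and 4025, most of it from PECAM1 (2853 and 2935). The ratio of 3′ to 5′ probe sets, a sign of RNA integrity, was 0.975 and 1.01 for GAPDH and 1.2 and 1.22 for ACTB on the siRNA-Tbet and siRNAc arrays.

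As a group, the proteasome genes differed little between the arrays. Signals are MAS5 intensities in arbitrary units, and differences are given as log2 ratios of siRNA-Tbet over siRNAc, after raising values under each array's median (144 and 146) to that median. A gene is represented by its brightest probe set that is not marked as cross-hybridising, or by a marked one where it has no other. It counted as measured when that probe set passed the median on either array. Of the 38 genes, 37 were measured, none with a raised value. Their median log2 ratio was 0.02, against -0.02 over all 12164 measured genes and 0.04 over those in the brightest of 10 signal deciles, and it was -0.01 after quantile normalization. Of the 37, 22 were higher and 15 lower with siRNA-Tbet, where 46.3% of all measured genes were higher and 53.7% lower. Among the 25 members in the brightest signal decile, 16 were higher, against 65.5% of the 1217 genes there. The split depends on the scaling. It was 14 higher and 23 lower after quantile normalization, 16 and 21 with the trend of ratio on signal removed, and 25 and 12 with median scaling. The shares of all measured genes that were higher were then 45.96%, 46.96% and 50.72%.

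Most members had nearly the same signal on both arrays. A difference under 1.1-fold was seen in 31 of 37, against 50.4% of all measured genes and 75.3% of the genes in the brightest decile. At least 1.2-fold differences were seen in 2 members that were higher, PSMB5 and PSME3, and in 1 that was lower, PSMD4. The shares among all measured genes were 10.3% and 14.9%, and those in the brightest decile were 2.79% and 1.4%. No member reached 1.5-fold, as 4.92% of measured genes did. Such a difference was rare among bright genes, with 1 higher and 2 lower of the 1217 in the brightest decile. The interquartile range of the members' log2 ratios was 0.11, against 0.27 for all measured genes, 0.15 for the brightest decile and 0.09 for the 25 members within that decile. Their SD of 0.13 was close to the 0.12 of the brightest decile.

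**Figure D1:**
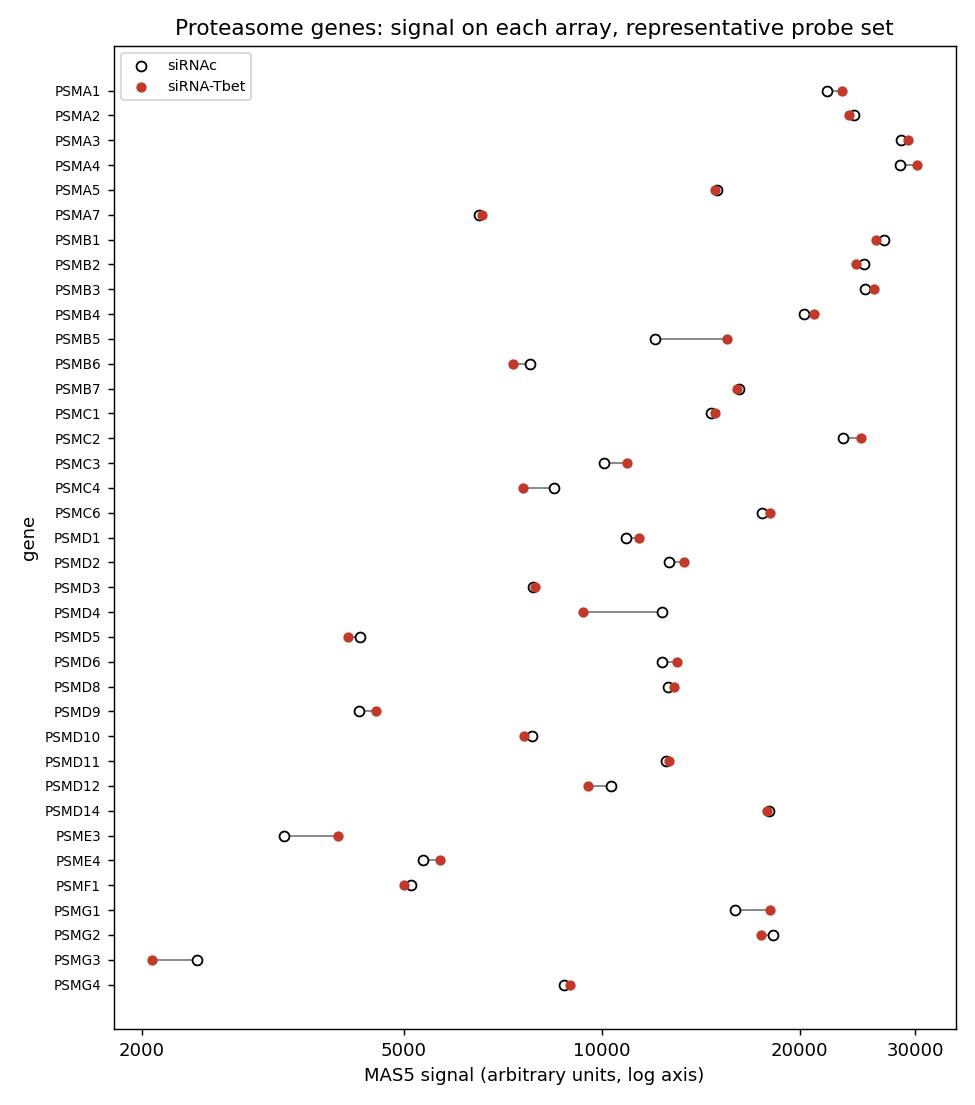
MAS5 signal (arbitrary units, log axis) of each of the 37 measured genes at its representative probe set, with open circles for the siRNAc array and red circles for the siRNA-Tbet array, 1 array each. The paired circles nearly coincide for most genes, and the widest gaps belong to PSMB5, which was higher with siRNA-Tbet, and PSMD4, which was lower. Signals of different genes come from different probes and are not ranked.

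The PSMA genes encode the outer α rings, which gate entry to the barrel. None of the 6 measured differed by 1.1-fold, and the median log2 ratio was 0.03, with a range from -0.02 to 0.09. That median was -0.02 after quantile normalization. PSMA4 had 30194 units with siRNA-Tbet against 28391 in the control, 6.35% more. PSMA1 had 23220 and 22022, with log2 ratios of 0.06 to 0.09 at its 3 probe sets. At the other end, PSMA2 had 23816 and 24220 and PSMA5 had 14873 and 14969. A dimmer probe set of each read lower with siRNA-Tbet, at 2523 against 3113 for PSMA2 and at 1080 against 1266 for PSMA5. Still dimmer probe sets that PSMA2 shares with C7orf25 were left out. They read higher, at 916 against 755 and 493 against 437. PSMA3 and PSMA7 had log2 ratios of 0.04 and 0.01. Another measured probe set of each read lower, at 176 against 179 for PSMA3 and at 13666 against 14203 for PSMA7. That of PSMA7 is brighter than its representative but may cross-hybridise. PSMA8, which encodes a testis form of an α subunit, was the 1 member not measured, at 13 and 10 units.

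Among the PSMB genes the catalytic subunits parted. PSMB5, which encodes the β5 subunit with chymotrypsin-like activity and the main target of bortezomib, had 15525 units with siRNA-Tbet against 12039 in the control, 1.29-fold more (log2 ratio 0.37). Within the brightest decile, 10 of 1217 genes had a higher ratio. This rests on 1 probe set, the gene's only one. The ratio was 0.34 after quantile normalization and 0.33 with the trend on signal removed.

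The other catalytic subunits were not higher. PSMB6, the caspase-like β1 subunit, had 7332 and 7790 units, and PSMB7, the trypsin-like β2 subunit, had 16084 and 16203. A second, dim probe set of PSMB7 read 193 against 343, a log2 ratio of -0.83, far from the -0.01 of its bright one. The 4 structural β subunits were nearly level at the representative probe set. PSMB4 had 21051 and 20317 units, PSMB1 had 26102 and 26892, and PSMB2 and PSMB3 had log2 ratios of -0.04 and 0.04. Other probe sets of PSMB4 read 15707 against 14237 and 910 against 974 (log2 ratios of 0.14 and -0.10). Those of PSMB1 read 26034 against 26419 and 174 against 237 (-0.02 and -0.44). The 4 probe sets of PSMB2 ran from -0.06 to 0.39, the highest at 373 against 286 units. The median of the 7 PSMB genes was -0.01, and its sign turned to 0.01 with median scaling.

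The immunoproteasome counterparts, left out above, also differed little. PSMB8, which replaces PSMB5, had 19366 and 18652 units, PSMB9 had 28136 and 28477, PSMB10 had 5494 and 6004, and PSME1 had 15132 and 15105. The log2 ratios were 0.05, -0.02, -0.13 and 0.0026. None of them reached 1.2-fold, as PSMB5 did. PSME2 has no probe set of its own. The probe set it shares with MIR7703 had 23568 and 25582 units, a log2 ratio of -0.12.

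The PSMC genes encode ATPases of the ring that feeds the core. Of the 5 measured, 4 were higher and 1 lower, with a median log2 ratio of 0.04 that was -0.0078 with the trend on signal removed. PSMC3 had 10938 units with siRNA-Tbet and 10076 with siRNAc, and PSMC2 had 24829 and 23244. PSMC1 had 14875 and 14651. PSMC4 had 7600 and 8462, a log2 ratio of -0.16 and the widest difference of the class. The dimmer probe sets of PSMC2 lay on the other side from its brightest, at 2890 against 3499 and 1328 against 1523 units (log2 ratios of -0.28 and -0.20, against 0.10).

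The PSMD genes include scaffold and ubiquitin-binding subunits of the base, the lid with the deubiquitinase, and chaperones of base assembly. The 12 measured had a median log2 ratio of 0.01, with 7 higher and 5 lower, and a median of -0.0099 after quantile normalization. PSMD4, a ubiquitin receptor, had 9354 units with siRNA-Tbet and 12350 with siRNAc at its representative probe set, 1.32-fold lower (log2 ratio -0.40). Only 3 of the 1217 genes in the brightest decile had a lower ratio. Its other measured probe sets did not show this, with 10015 against 9821 units at one that may cross-hybridise and 8146 against 8453 at the third (log2 ratios of 0.03 and -0.05). The gene's 3 readings therefore disagree, and its difference is uncertain.

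The remaining base subunits, PSMD1 and PSMD2, which hold the particle together, both had a log2 ratio of 0.07, at 11417 against 10880 and 13327 against 12680 units. In the lid, PSMD14, the deubiquitinase that removes ubiquitin chains from substrates, had 17868 and 17940. PSMD6 had 13022 and 12363, and PSMD3, PSMD8 and PSMD11 had log2 ratios of 0.01 to 0.03. PSMD12 had the lowest ratio of the 6 lid genes with a PSMD symbol that were read, with 9529 against 10322 units. Its second probe set was on the same side at 2417 against 3046 (log2 ratios of -0.12 and -0.33). Of the base chaperones, PSMD9 had 4547 and 4282 units, while PSMD5 and PSMD10 had log2 ratios of -0.06 and -0.04.

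The genes of alternative caps, of an inhibitor and of core assembly had the widest interquartile range of log2 ratios among the families, 0.18. It was 0.19 over all measured genes at least as bright as the dimmest measured member, PSMG3, which is in this group. PSME3 encodes PA28γ, a nuclear cap that works without ubiquitin, and had 3979 units with siRNA-Tbet against 3293 with siRNAc, 1.21-fold higher. A probe set that may cross-hybridise read likewise, at 4991 against 4156. The brightest, which may also cross-hybridise, was lower at 9795 against 11016, as was the dimmest at 1519 against 1766. The 4 readings run from -0.22 to 0.27 on the log2 scale and have no common direction. PSME4, which encodes the cap PA200, had 5673 and 5349 units. PSMF1, the inhibitor PI31, had 5014 and 5122, while its 4 probe sets ran from -0.21 to 0.66, the last at 310 against 195 units.

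PSMG1 to PSMG4 encode the chaperones that build the α ring. PSMG1 had 18030 units with siRNA-Tbet and 15938 with siRNAc, 1.13-fold higher, and its partner PSMG2 had 17453 and 18223. PSMG3 was 1.17-fold lower at 2071 against 2429, and its partner PSMG4 had 8946 and 8758. Each of these except PSMG4 has 1 measured probe set. A dim second probe set of PSMG4 read 365 against 205, with a log2 ratio of 0.83 against 0.03 at the bright one. Partners of 1 chaperone pair thus lay on opposite sides of 0 in both pairs, by small amounts.

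**Figure D2:**
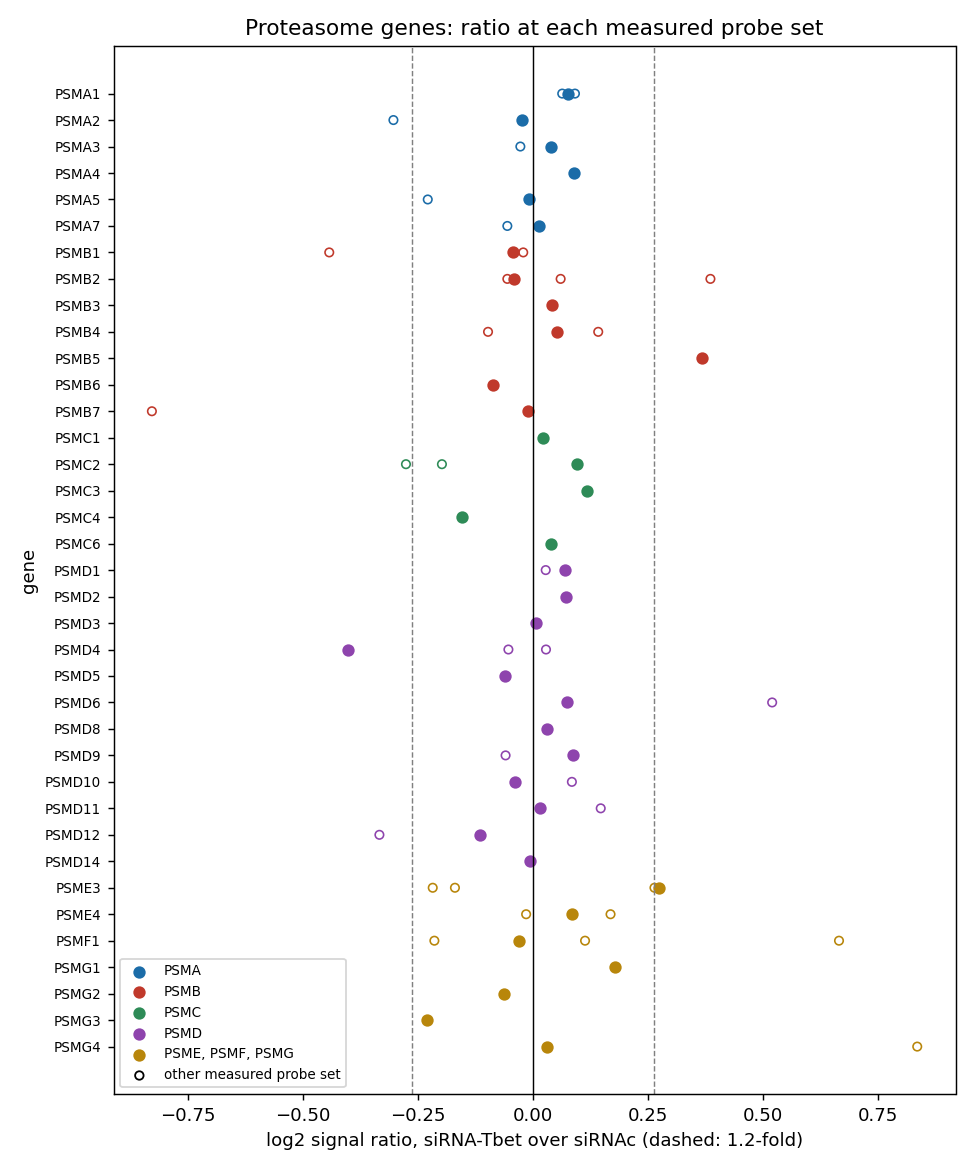
log2 ratio of siRNA-Tbet over siRNAc for every measured probe set of the 37 genes, with filled circles for the representative probe set, open circles for the others, colours for the gene families and dashed lines at 1.2-fold. Filled circles of all genes but PSMB5, PSMD4 and PSME3 lie between the dashed lines, while open circles reach -0.83 (PSMB7) and 0.83 (PSMG4).

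How far probe sets of 1 gene disagreed sets a scale for these differences. Of the 21 members with at least 2 measured probe sets, 10 had all of them on one side of 0, against 41.4% of such genes overall. None had all of them at least 1.2-fold different in the same direction. Spread was taken between the representative probe set and the next brightest, with those marked as cross-hybridising ranked last. It was the SD of their difference divided by the square root of 2. This was 0.24 on the log2 scale for members and 0.25 over 6122 genes. With a second probe set of at least 1000 units it was 0.15 for 15 members and 0.16 overall. At the representative probe set, PSMB5, PSMD4 and PSME3 had log2 ratios whose size exceeded 0.24, and PSMC4, PSMG1 and PSMG3 also exceeded 0.15. Over all measured genes the SD was 0.27 and the lower quartile -0.16, so such sizes were common there. In the brightest decile the SD was 0.12. PSMB5, PSMC4, PSMG1 and PSMG3 have 1 measured probe set each and did not enter the spread, while PSMD4 and PSME3 did. This spread leaves out variation between cultures and arrays. The 33 measured probe sets beside the representative ones read higher in 15 cases and lower in 18, against 49.7% lower among all such probe sets, and had a median of -0.02.

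**Figure D3:**
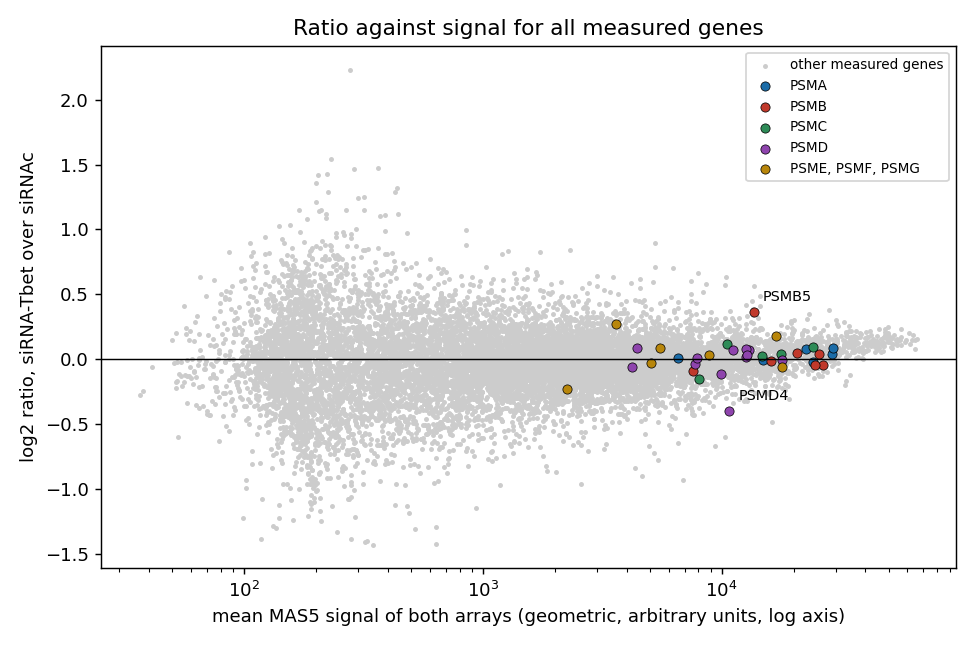
log2 ratio of siRNA-Tbet over siRNAc against the geometric mean MAS5 signal of both arrays (log axis) for the 12164 measured genes, with grey points for other genes and coloured points for the proteasome families. Most members sit towards the bright, narrow end of the cloud, 25 of the 37 in the brightest decile, and PSMB5 and PSMD4 lie farthest from 0 among them.

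Other genes of the ubiquitin-proteasome pathway also differed little as groups. Of 15 measured genes for further parts, assembly factors, regulators and the immunoproteasome, 8 lay above 0 and 7 below it, with a median log2 ratio of 0.0026. Of all measured genes, 46.3% were higher. UBE3C, a ubiquitin ligase that works on the proteasome, had 3515 units against 4649 (1.32-fold lower), but 1033 against 947 at its other probe set. SEM1, a small lid subunit, had 9712 and 11496, a log2 ratio of -0.24 on 1 probe set. ADRM1, a ubiquitin receptor like PSMD4, and POMP, which chaperones the β ring, had ratios of 0.05 and -0.02.

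Of 13 measured genes that supply ubiquitin or deliver substrates, 8 lay above 0 and 5 below it, against 46.3% of all measured genes above. The median was 0.05. UBQLN4, a shuttle factor, had 3449 units against 2826 (1.22-fold higher), and FAF2, a cofactor of the unfoldase VCP, had 3648 and 3129. Both probe sets of each were on the higher side. NPLOC4, another VCP cofactor, had 2273 and 2648, and VCP itself 13015 and 13368.

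Genes of NRF1 and NRF2 control also showed no common direction, with 7 of 13 higher, 6 lower and a median of 0.0025, where 46.3% of all measured genes were higher. The list mixes activators, repressors and controlled genes, so its median does not measure NRF activity, which was not tested. NFE2L1 had 3612 units against 3918 at its representative probe set, and its 3 probe sets had log2 ratios of -0.12 to -0.01. BACH1, a repressor at NRF2 sites, had 2855 and 3398, but 191 against 169 at its dim second probe set. TXNRD1, a thioredoxin reductase under NRF2 control, had 15878 and 13445, and SQSTM1, the autophagy receptor p62, had 10910 and 9806. Across the lists, 1 gene of 41 was at least 1.2-fold higher and 1 at least 1.2-fold lower. The shares were 10.3% and 14.9% of all measured genes, and 2.79% and 1.4% in the brightest decile.

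**Figure D4:**
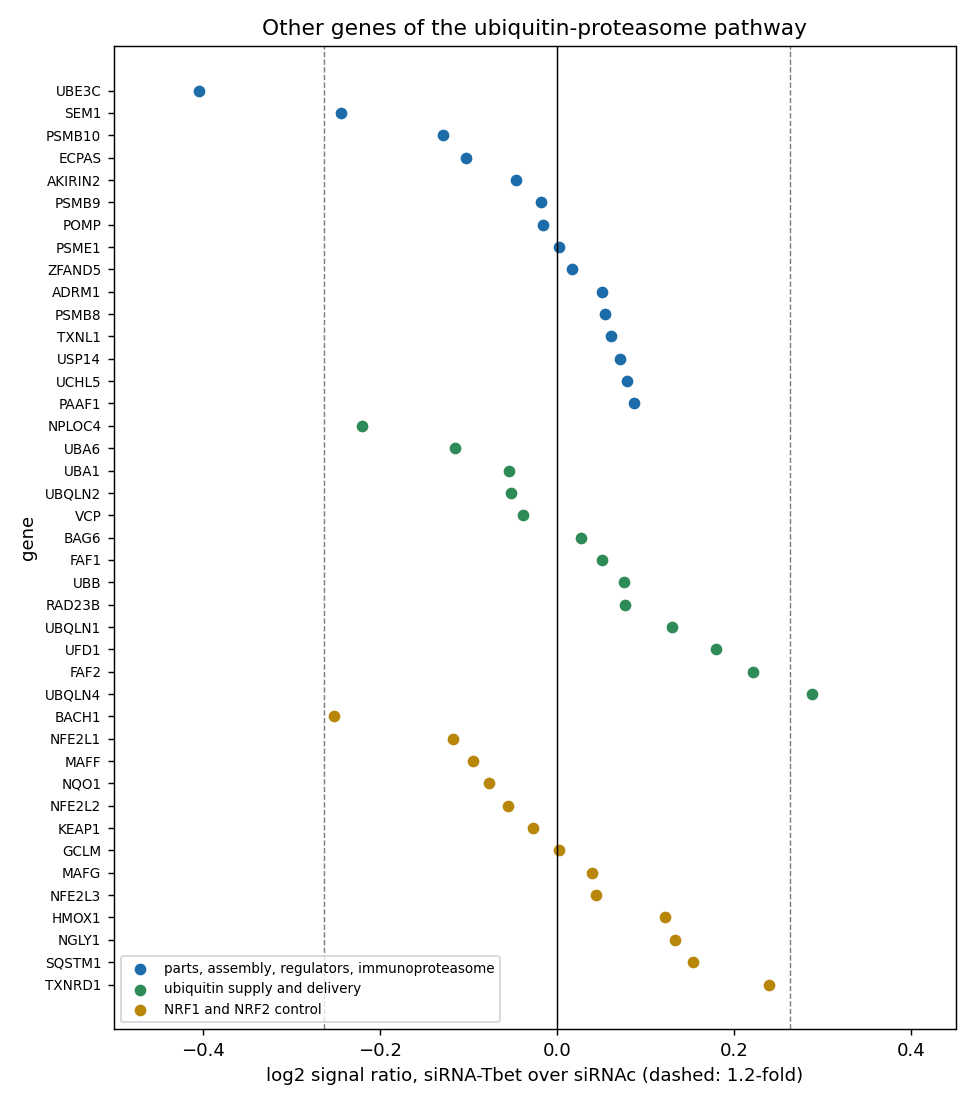
log2 ratio of siRNA-Tbet over siRNAc at the representative probe set of 41 genes of the pathway outside the symbol rule, in 3 lists shown by colour, with dashed lines at 1.2-fold. Each list straddles 0, and only UBE3C (-0.40) and UBQLN4 (0.29) lie beyond the dashed lines.

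Promoter letters were read because proteasome genes are known to share control elements. RefSeq promoters (GRCh38.p14) matched 32 of the 38 genes by symbol, and the 250 bases before the most upstream start site of each were searched on both strands. The core of the antioxidant response element, TGACNNNGC, to which NRF1 and NRF2 can bind, was found in 8 of 32, or 25%, against 11.1% of 27305 genes. CCAAT, the NF-Y element, was found in 14, or 43.8%, against 33.0%. The 27305 genes were not matched to the members in signal or base content, so these shares are descriptive. Both occurred in 3 of the 32, and they did not overlap. The 60-base stretches that follow show the response element core in members that were level, lower and higher, and the CCAAT of PSMB5, the member with the largest higher signal. Elements are in capitals, and each stretch is read along the gene's own strand.
PSMB3 (chr17:38752612-38752671, plus strand): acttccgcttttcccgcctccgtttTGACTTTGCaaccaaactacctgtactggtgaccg
PSMD3 (chr17:39980745-39980804, plus strand): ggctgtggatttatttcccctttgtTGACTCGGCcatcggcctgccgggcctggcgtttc
PSMD12 (chr17:67366708-67366767, minus strand): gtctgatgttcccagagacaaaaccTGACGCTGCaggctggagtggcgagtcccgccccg
PSMG1 (chr21:39183600-39183659, minus strand): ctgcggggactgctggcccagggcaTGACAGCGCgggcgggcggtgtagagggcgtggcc
PSMB5 (chr14:23035350-23035409, minus strand): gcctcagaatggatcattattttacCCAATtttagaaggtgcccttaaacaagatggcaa

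Genes with and without these letters had small median ratios alike. The 8 members with TGACNNNGC had a median log2 ratio of 0.02, with 5 higher, and the 23 measured members without it had 0.04, with 16 higher. The printed genes with TGACNNNGC had log2 ratios of -0.12 for PSMD12, 0.01 for PSMD3, 0.04 for PSMB3 and 0.18 for PSMG1. The 14 members with CCAAT had a median of 0.04, with 10 higher, and the 17 without it 0.03, with 11 higher. In PSMB5 the searched stretch held CCAAT and no TGACNNNGC, which says only that those letters are not in this window.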

How the data were processed

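The authors deposited linear signal intensities for each probe set, made with MAS5 per the submitters' processing notes. Both deposited arrays had a 2% trimmed mean of 1000 units, so no further scaling was applied. Of 54675 probe sets, 41097 had 1 gene in the platform annotation, 1801 had several and were left out, and 11777 were unnamed; symbols were updated through RefSeq. MAS5 subtracts mismatch signal, which makes low intensities noisy. Compression of bright signals can occur on such arrays and was not measured here.

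Signals below the median of the non-control probe sets of their array were raised to that median before log2 ratios were taken. Alternatives were no floor, a 25th percentile floor, a common floor, quantile normalization, median scaling, a lowess correction of ratio on signal (span 0.3) and other choices of probe set. With 1 array in each group there was no test. Signals are given for the 2 highest and 2 lowest members of each family, the catalytic subunits, members at least 1.2-fold different and those whose probe sets disagreed; the 3 largest differences were named in each further list. The members and lists were chosen with earlier results of these data known. The calculation was tested on simulated data. Analyses used Python 3.11.15, pandas 2.3.3 and statsmodels 0.14.6.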

Additional observations from a re-analysis of the deposited data

How the results depend on the processing

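No paired analysis was possible because each group holds 1 array, and leaving out a replicate was not possible for the same reason. The floor choices (none, 25th percentile, common) kept every family median on its side, as no representative signal was near the floor. Scaling and the choice of probe set did not. With the lowess trend removed the median log2 ratio was -0.013 over all members, -0.013 for PSMA, -0.0078 for PSMC and -0.0053 for PSMD. Quantile normalization gave -0.014 over all members, -0.023 for PSMA and -0.0099 for PSMD, with 14 members higher and 23 lower. Median scaling gave 0.011 for PSMB. The median over each gene's measured probe sets gave -0.0078 for PSMA and 0.0093 for PSMB. Plain probe sets alone, which read 27 members, gave 0.041 for PSMB and -0.16 for PSMC, the value of PSMC4, with 3 members at least 1.2-fold lower. The next brightest probe set, with those marked as cross-hybridising ranked last, exists for 21 members. It gave -0.027 over all members, -0.056 for PSMA, 0.019 for PSMB and -0.28 for PSMC, where PSMC2 alone has a second measured probe set. For PSME, PSMF and PSMG it gave -0.11, and in all 8 members were higher and 4 at least 1.2-fold lower. Of the 37 members, 25 kept their sign under the 3 scalings, and the 12 that did not had log2 ratios of at most 0.09 in size. PSMB5 and PSMD4 kept theirs.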
